A study of Homo sapiens with 6 samples.

Results

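The genes described here are 10 sensors, adaptors and effectors of the cellular response to double-stranded RNA: IFIH1, DDX58, DHX58, TLR3, MAVS, TBK1, IRF3, IRF7, EIF2AK2 and ADAR. They were 10 of 16571 gene symbols with counts, found by exact symbol, with the counts of a gene's transcripts added up. DDX58 is now named RIGI. The list was chosen from values of the comparison described here, so the levels and changes of these 10 genes are a description and carry no test.

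The study addressed what the splicing factor USP39 does in ovarian cancer cells. RNA was sequenced from A2780, an established ovarian cancer cell line, after lentiviral infection with the control construct pGIPZ-NC (3 libraries) or with a hairpin against USP39, shUSP39 (3 libraries). The methods of the study describe stable lines, made by viral infection and then puromycin selection. The labels do not give which hairpin sequence the shUSP39 libraries carried, whether the lines were clones, or how long after infection RNA was taken. USP39 itself was not analysed here.

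Cells read double-stranded RNA as a sign of viral infection. In the cytoplasm it is bound by the helicases RIG-I (encoded by DDX58) and MDA5 (IFIH1), which signal through MAVS on the mitochondrion, and in endosomes by TLR3, which signals through TICAM1. Both routes reach the kinase TBK1 and the transcription factors IRF3 and IRF7, which switch on interferon genes, while PKR (EIF2AK2) blocks translation and ADAR edits double-stranded RNA so that it is less readily sensed. Several of these genes are themselves induced by interferon, through response elements in their promoters.

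Each library held between 28294819 and 32939264 counts. The pGIPZ-NC libraries had a count for 12662 to 12809 genes and shUSP39 replicate 1 for 12819, whereas shUSP39 replicates 2 and 3 had counts for 15446 and 14890 genes and stood apart in this measure. Of the epithelial markers, KRT18 had 676 to 711 counts in pGIPZ-NC and more, 932 to 1075, in shUSP39. KRT19 and KRT8 went the other way. KRT19 had 616 to 836 in pGIPZ-NC and 51 to 68 in shUSP39, and KRT8 had 26 to 37 in pGIPZ-NC and 0 to 3 in shUSP39. EPCAM, CDH1 and PAX8 had at most 6 counts in any library. MUC16, which encodes the ovarian carcinoma antigen CA125, had 1 to 5 counts in pGIPZ-NC, 6 in shUSP39 replicate 1, and 150 and 71 in shUSP39 replicates 2 and 3, the libraries that stood apart. Levels are given in CPM, counts scaled to 1000000 per library with its total adjusted by TMM scaling. The 6 immune markers with counts summed to 9.57 to 12.3 CPM in pGIPZ-NC and 11.8 to 12.3 CPM in shUSP39. Nearly all of that was CD68, and the leukocyte marker PTPRC had at most 7 counts. Summed over 4 genes each, fibroblast markers lay at 12.9 to 15.5 CPM in pGIPZ-NC and 7.71 to 9.09 CPM in shUSP39, and endothelial markers at 0.354 to 0.439 CPM and 0.531 to 1.73 CPM. Fewer cells making an RNA and less RNA per cell cannot be told apart in bulk libraries.

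The promoter sequences are shown first because interferon acts on several of these genes through them. RefSeq promoter windows on GRCh38.p14, 250 bases before to 50 bases after each start site, were matched for 7 of the 10 genes, giving 9 windows because ADAR has 3 starts. Both strands were searched for GAAANNGAA, the core of the interferon-stimulated response element, which 8.11% of all 35116 promoter windows held, and for TTCNNNGAA, a STAT site, which 7.66% held. The response element core was present in 3 of the 9 windows, those of IFIH1, TLR3 and EIF2AK2. IFIH1 had 4 matches, 3 of them interlocked on the reverse strand in 1 run and 1 close to the start site. The runs are printed 5′ to 3′ on the strand of the gene, with the matches in capitals.
IFIH1, chr2:162318820-162318856, minus strand: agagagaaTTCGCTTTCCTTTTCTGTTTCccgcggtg
IFIH1, chr2:162318689-162318713, minus strand: agagaatcGAAACAGAAaccaaagt
EIF2AK2, chr2:37156970-37156994, minus strand: tccaagggGAAAACGAAactgagaa
TLR3, chr4:186069145-186069169, plus strand: gctttactTTCACTTTCgagagtgc

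In IFIH1 the matches began 164, 158, 152 and 21 bases before the start site, and each of the first 3 overlapped its neighbour. In EIF2AK2 the match began 6 bases before the start site and in TLR3 3 bases before it. TLR3 alone among the 7 genes also held the STAT site, with 2 matches that began 178 and 50 bases before the start. Neither motif occurred in the windows of DDX58, MAVS, TBK1 or ADAR. IRF3, IRF7 and DHX58 were not matched. A match describes letters only and is not a measured binding site.

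**Figure D1:**
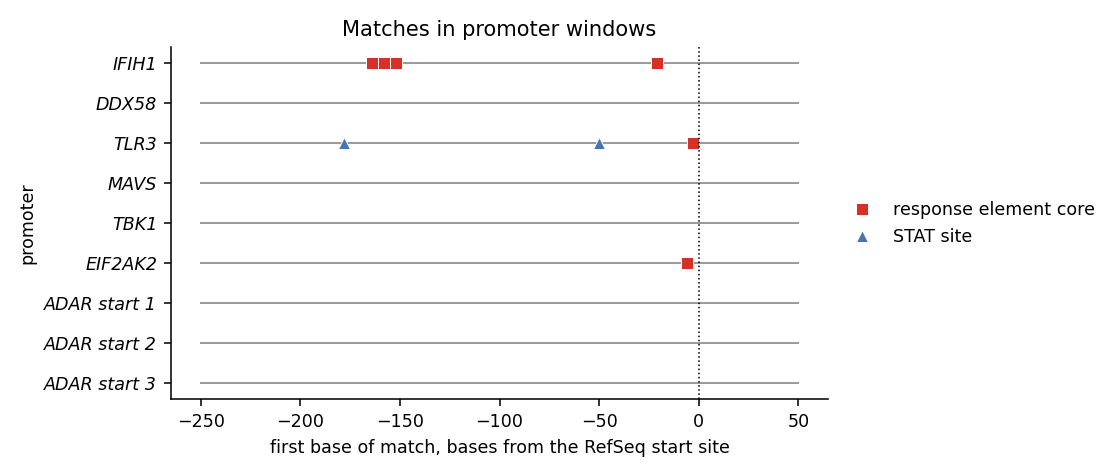
Positions of motif matches in the RefSeq promoter windows of 7 genes, with distance from the start site in bases on the x axis and 1 line per promoter (ADAR has 3). Squares mark the response element core and triangles the STAT site; IFIH1 has 4 squares, TLR3 1 square and 2 triangles, EIF2AK2 1 square, and the other lines are empty.

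Among the 10 genes, the 3 cytoplasmic RIG-I-like receptors were several-fold higher in shUSP39 than in pGIPZ-NC, with every shUSP39 library above every pGIPZ-NC library. TLR3 was lower in all 3 shUSP39 libraries, at very low counts. MAVS, TBK1, IRF3, IRF7, EIF2AK2 and ADAR had groups that overlapped. In the edgeR quasi-likelihood fit over all 10695 genes tested, 3 of the 10 had a Benjamini-Hochberg adjusted p under 0.05 and were higher, all over 2-fold, and none was lower. Of all tested genes, 16.1% passed as higher and 17.5% as lower, and with the 2-fold limit 4.53% and 2.28%. Because the list was chosen on this comparison, its count is not evidence beside those shares. The median log2 change was 0.09 over the 10 genes and 0.01 over all tested genes. Of all genes that passed, 48.0% were higher, and 58.0% under upper-quartile scaling. Leaving out shUSP39 replicates 2 and 3, the libraries that stood apart, was chosen after seeing the data and left 1 shUSP39 library. IFIH1, DDX58 and DHX58 then had log2 changes of 2.75, 1.69 and 1.53. TLR3 was at -4.03, from 1 count in that library.

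**Figure D2:**
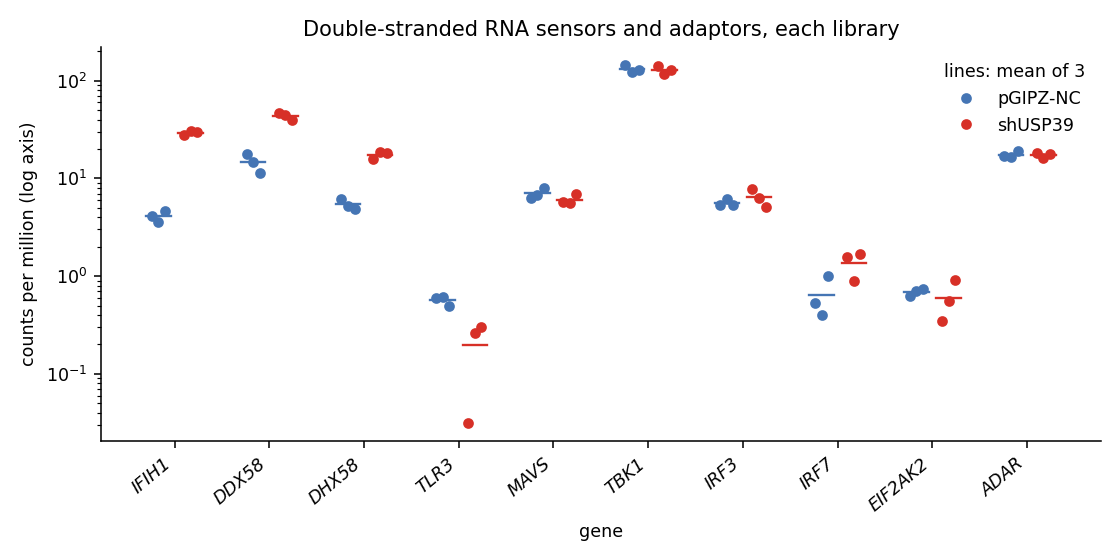
CPM of each gene (log axis) in each of the 6 libraries, with a line at the mean of 3. The 3 receptors IFIH1, DDX58 and DHX58 separate fully and upward in shUSP39, TLR3 separates downward with 1 library near 0.03 CPM, and the other 6 genes overlap.

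IFIH1 encodes MDA5, which binds long double-stranded RNA. It lies at chr2:163123584-163175194 on the minus strand (GRCh37, GENCODE), and its main transcript has 16 exons. Its counts were 132, 117 and 132 in the pGIPZ-NC libraries and 892, 932 and 890 in the shUSP39 libraries. The shUSP39 libraries lay close together and far above the controls. Scaled to TMM-adjusted library size, control cells had 4.14 ± 0.536 CPM and knockdown cells 29.5 ± 1.39 CPM (SD over 3 libraries), a ratio of 7.12. The log2 change of 2.83 (SE 0.12) was the largest of the 10 genes, and it stayed between 2.74 and 2.92 in all 15 alternative analyses. This is the gene whose promoter window held the run of 3 interlocked response element cores printed above. Whether the run and the change are linked was not tested.

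DDX58 encodes RIG-I, which recognises short double-stranded RNA with a 5′ triphosphate. It lies at chr9:32455300-32526206 on the minus strand, with 18 exons in its main transcript. The pGIPZ-NC libraries held 563, 474 and 322 counts and the shUSP39 libraries 1506, 1377 and 1165. The lowest shUSP39 library was above the highest control, although the controls themselves were spread widely. Control libraries averaged 14.5 ± 3.13 CPM and knockdown libraries 43.8 ± 3.97 CPM (SD, n = 3), with a log2 change of 1.59 (SE 0.12) and a range of 1.44 to 1.75 over the alternatives. The annotation places another, unnamed gene over 96.6% of the bases of its main transcript. The strand and type of that gene were not recorded here, and reads of the pair cannot be told apart in these counts. The window of its promoter held neither motif.

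DHX58 encodes LGP2, a relative of RIG-I and MDA5 that has no signalling domain and modulates both. It lies at chr17:40253422-40264732 on the minus strand, with 14 exons. Counts were 198, 170 and 137 in pGIPZ-NC and 504, 572 and 533 in shUSP39. Here too the groups were well apart. The 3 controls averaged 5.43 ± 0.700 CPM and the 3 knockdown libraries 17.5 ± 1.54 CPM (SD), and the log2 change was 1.68 (SE 0.13). DHX58 and DDX58 had changes that differed by less than 1 SE of either, and both were smaller in value than that of IFIH1.

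TLR3, the endosomal receptor, lies at chr4:186990065-187009227 on the plus strand, with 5 exons. It had 19, 20 and 14 counts in pGIPZ-NC and 1, 8 and 9 in shUSP39. It was barely detected in either group, and it passed the filter on low counts only through pGIPZ-NC. Its level was 0.569 ± 0.0642 CPM and 0.199 ± 0.147 CPM (SD, n = 3 each), with a log2 change of -1.51 (SE 0.67). The size of the change rested on shUSP39 replicate 1, the library with 1 count: it was -1.01 without that replicate and -4.03 when that replicate alone stood for shUSP39. In all, groups did not overlap for 1 of the 10 genes as lower and for 3 as higher, beside 22.5% and 21.7% of all tested genes. The TLR3 window also held a response element core, and the sign of the TLR3 value was opposite to that of IFIH1. A link of motif and change was not tested.

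MAVS, the mitochondrial adaptor that RIG-I and MDA5 signal through, lies at chr20:3827446-3856770 on the plus strand. Its counts were 201, 221 and 227 in pGIPZ-NC and 185, 171 and 203 in shUSP39. The groups overlapped by 1 library. The log2 change was -0.21 (SE 0.16), and it ranged from -0.31 to -0.12 over the alternatives. The adaptor therefore did not share the change of its receptors in size.

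TBK1, the kinase that phosphorylates IRF3 and IRF7, lies at chr12:64845870-64895894 on the plus strand, with 21 exons. It was by far the most abundant of the 10 genes in counts, at 4584, 3993 and 3645 in pGIPZ-NC and 4478, 3588 and 3764 in shUSP39. The values of both groups covered nearly the same range. With levels of 132 ± 10.7 CPM and 128 ± 11.4 CPM (SD, n = 3 each), its log2 change of -0.04 (SE 0.06) was the most precisely measured of the list.

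IRF3, the transcription factor that is present before stimulation and is activated by TBK1, lies at chr19:50162826-50169132 on the minus strand. It had 169, 200 and 151 counts in pGIPZ-NC and 252, 193 and 150 in shUSP39. In CPM, shUSP39 replicates 1 and 2 lay above the controls and shUSP39 replicate 3 was the lowest of all. The log2 change was 0.20 (SE 0.18), and 0.02 without shUSP39 replicate 1. Exons of BCL2L12 cover 14.2% of its main transcript. Of 8 RefSeq mRNAs, 2 had counts, NM_001197122.1 and NM_001197123.1, and the second of them gave 64.5% ± 2.93 of the counts of the gene in the controls and 68.3% ± 9.06 after knockdown (SD, n = 3), which overlapped.

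IRF7, the interferon-inducible partner of IRF3, lies at chr11:612553-615983 on the minus strand. Counts were 17, 13 and 28 in pGIPZ-NC and 50, 27 and 50 in shUSP39. The highest control exceeded the lowest shUSP39 library by 1 count. Levels were 0.641 ± 0.310 CPM and 1.38 ± 0.434 CPM (SD, n = 3 each), with a log2 change of 1.11 (SE 0.44) that ranged from 0.85 to 1.55 over the alternatives. It passed the adjusted limit in 7 of 15 alternatives and not in the analysis reported here. At these counts IRF7 was the member whose position relative to the limit was least settled.

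EIF2AK2 encodes PKR, the kinase that stops translation when it binds double-stranded RNA. It lies at chr2:37326353-37384665 on the minus strand. There were 20, 23 and 21 counts in pGIPZ-NC and 11, 17 and 27 in shUSP39. The shUSP39 libraries lay on both sides of the controls. The log2 change was -0.20 (SE 0.50), and it turned to 0.08 without shUSP39 replicate 1, so no direction can be given. The promoter window of EIF2AK2 held a response element core, as that of IFIH1 did, and a link of motif and change was not tested. At these counts a 2-fold lower level lay within 2 SE of the value for EIF2AK2, and a 2-fold higher level lay outside.

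ADAR, the editing enzyme that limits sensing of the cell's own RNA, lies at chr1:154554171-154600489 on the minus strand. It had 544, 535 and 535 counts in pGIPZ-NC and 576, 498 and 526 in shUSP39. The groups overlapped and their means almost coincided, at 17.5 ± 1.29 CPM and 17.3 ± 0.941 CPM (SD, n = 3 each). The log2 change was -0.01 (SE 0.10). The shares of its 2 counted transcripts differed more than their sum did. NM_001025107.2 gave 75.0%, 83.2% and 81.5% of the counts of ADAR in pGIPZ-NC and 70.7%, 71.9% and 71.3% in shUSP39, and NM_001193495.1 gave the rest. The shares did not overlap between groups, at 79.9% ± 4.32 and 71.3% ± 0.614 (SD, n = 3 each), as a description without a test. How often shares failed to overlap in other genes with several counted transcripts was not computed. The difference is therefore not read as a shift between transcripts. ADAR makes a long, interferon-inducible protein and a shorter constitutive one, and which of them these transcripts encode was not determined here.

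**Figure D3:**
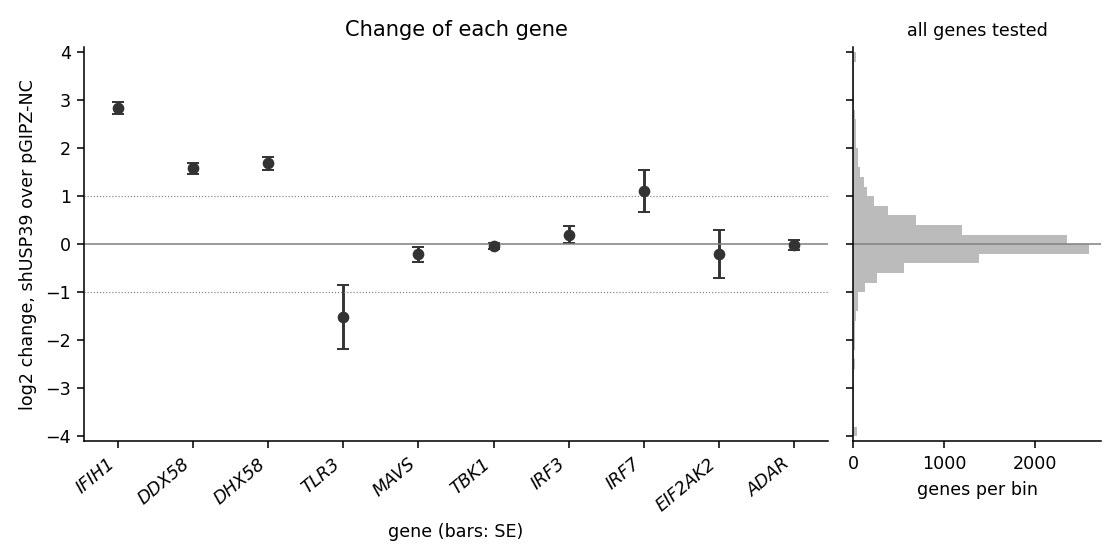
Log2 change of shUSP39 over pGIPZ-NC for each gene (left, points with SE bars, dotted lines at 2-fold) beside the histogram of all 10695 tested genes (right, values beyond 4 in the end bins). IFIH1 at 2.83, DHX58 at 1.68 and DDX58 at 1.59 lie in the upper tail, TLR3 and EIF2AK2 have the widest bars, and TBK1 and ADAR sit at 0.

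The number of RefSeq mRNAs per gene split the list evenly. Counting only accessions no newer than those in the table, IFIH1, DDX58, DHX58, TLR3 and TBK1 had 1 mRNA each, and it was counted. MAVS had 1 counted of 2, IRF7 and EIF2AK2 1 of 3, ADAR 2 of 5 and IRF3 2 of 8. Over the whole table, the median level was 3.77 CPM in 8269 genes with 1 mRNA, 2.46 CPM in 3575 genes with 2 and 0.983 CPM in 4437 genes with 3 or more. Of the genes with 3 or more, 93.9% had fewer transcripts with counts than mRNAs. The part of this in the low counts of EIF2AK2 and IRF7 was not tested. All 3 genes that passed were among the 5 with a single mRNA. The share that passed among all genes with 1 mRNA was not computed, and the list was chosen on this comparison. The split is therefore a description only.

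Levels were compared between genes only for those 5, as CPM per kilobase of the main transcript. In pGIPZ-NC the order was TBK1 at 43.6 ± 3.54, DDX58 at 3.14 ± 0.675, DHX58 at 2.10 ± 0.270, IFIH1 at 1.16 ± 0.150 and TLR3 at 0.0946 ± 0.0107 CPM per kilobase (SD, n = 3 each). In shUSP39 IFIH1 moved above DHX58, with TBK1 at 42.4 ± 3.76, DDX58 at 9.46 ± 0.858, IFIH1 at 8.23 ± 0.390, DHX58 at 6.75 ± 0.594 and TLR3 at 0.0331 ± 0.0244 CPM per kilobase (SD, n = 3 each). No neighbours in either order had overlapping libraries, but DDX58 and IFIH1 nearly met in shUSP39, where the lowest DDX58 library was at 8.51 and the highest IFIH1 library at 8.50 CPM per kilobase. MDA5 mRNA, the scarcest of the 3 receptors in the controls, was the second of them after knockdown. Lengths were those of the GENCODE main transcript, which can differ from the RefSeq model that was counted.

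For the 3 genes with the largest changes, the tested genes nearest in pattern were found by the root mean square difference of centred log2 CPM over the 6 libraries. IFIH1 was closest to ISG15, an interferon-induced ubiquitin-like protein (difference 0.148, log2 change 2.97), followed by SLC9A2 (0.152) and C3orf80 (0.160). DHX58 was closest to MAP1B (0.0687), PALLD (0.0788) and LGI2 (0.115), and DDX58 to WNT11 (0.0990), DERL3 (0.143) and PIANP (0.144). These are likenesses over 6 libraries of 2 groups and mostly measure a similar change.

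The rest of the pathway was followed in 8 lists of 95 other genes, of which 82 had counts and 62 were tested. By the edgeR quasi-likelihood test with Benjamini-Hochberg adjustment over all tested genes, 17 of the 62 rose and 10 fell, beside 16.1% and 17.5% of all tested genes, with a median log2 change of 0.02. The split was 21 to 8 under upper-quartile scaling. These lists were chosen with earlier results of these data known. Their counts and adjusted p-values are a description and not evidence beside those shares. Per list, the counts given next are small and are described in the same way. The tested genes that changed were spread over all lists, and those over 2-fold were few: DDX60, IFI16, PPP1R15A and 4 interferons and chemokines. None of the 62 fell by 2-fold. The 4 interferons and chemokines are among the 17 that rose. They passed the filter on low counts only through shUSP39, so only a rise could be found for them. The count of 17 is therefore not read against the share of all tested genes.

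**Figure D4:**
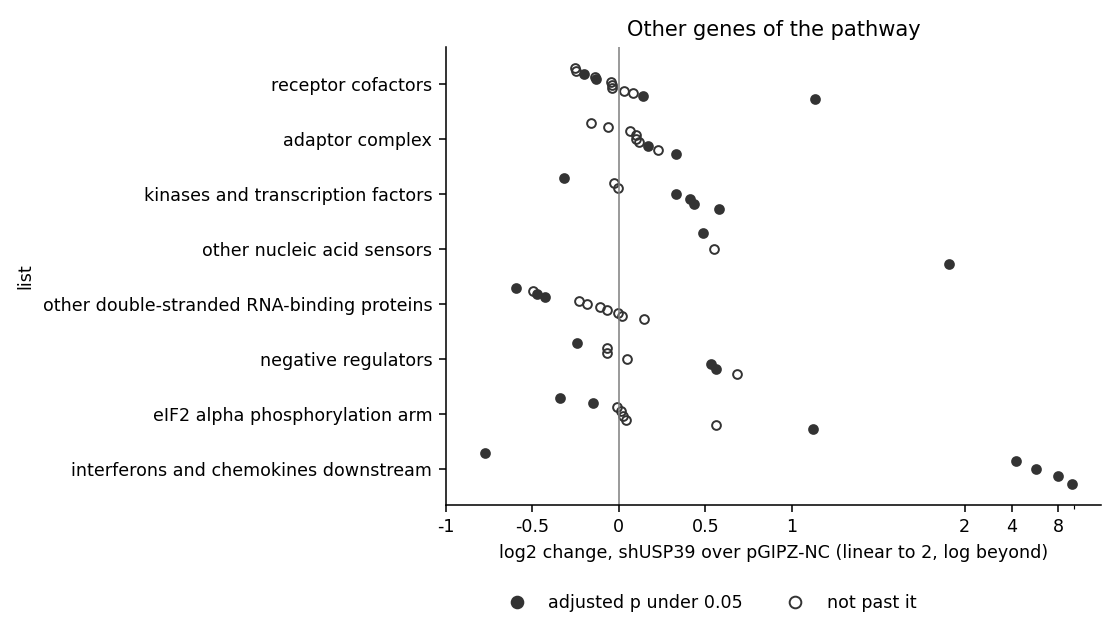
Log2 change of shUSP39 over pGIPZ-NC for the 62 tested pathway genes by list (axis linear to 2 and logarithmic beyond), filled where the adjusted p was under 0.05. Most lists centre near 0, with DDX60, IFI16 and PPP1R15A to the right, and 4 of 5 interferons and chemokines lie beyond 4. Those 4 entered the test only through shUSP39, and the value of IFNL1 depends on the prior count of the fit.

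Among cofactors of the receptors, 2 of 12 tested genes rose and 2 fell. DDX60, a helicase that helps RIG-I-like receptors signal, rose from 405, 461 and 394 counts to 1027, 927 and 808 (log2 change 1.14, SE 0.10, adjusted p 3.2e-10). TRIM25, the ubiquitin ligase that activates RIG-I, rose only slightly (0.14, SE 0.04, adjusted p 0.0033). MEX3C and PPP1CC, a ubiquitin ligase and a phosphatase subunit that act on the receptors, fell by 0.20 (adjusted p 0.016) and 0.13 (adjusted p 0.016) on the log2 scale. Neither was firm: for MEX3C the adjusted p was 0.0524 without pGIPZ-NC replicate 2 and 0.0807 without shUSP39 replicate 1. For PPP1CC it was 0.109 without pGIPZ-NC replicate 1, 0.0585 without shUSP39 replicate 2 and 0.0673 without shUSP39 replicate 3.

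Around the adaptors, 2 of 9 rose and none fell. TICAM1, the adaptor of TLR3, rose by a log2 change of 0.33 (SE 0.06, adjusted p 1.0e-04), opposite in sign to the value of its receptor. TBKBP1, which binds TBK1, rose by 0.17 (SE 0.05, adjusted p 0.0073), but its adjusted p was 0.0599 without pGIPZ-NC replicate 1 and 0.0609 without shUSP39 replicate 3.

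Of the other kinases and transcription factors, 4 of 7 rose and 1 fell. The risers were NFKB2 (log2 change 0.58, SE 0.16, adjusted p 0.0047) and RELB (0.33, SE 0.06, adjusted p 4.6e-05), which form the non-canonical NF-κB dimer, and IRF9 (0.44, SE 0.10, adjusted p 7.5e-04) and IRF1 (0.41, SE 0.08, adjusted p 3.3e-04). IRF9 is the DNA-binding part of the complex that reads response elements. IRF2, named after its value was seen, fell by 0.32 on the log2 scale (adjusted p 4.9e-04) and is an antagonist of IRF1. NFKB2 had an adjusted p of 0.0585 without shUSP39 replicate 3.

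Other nucleic acid sensors had 2 of 3 tested genes higher. IFI16, a sensor of DNA, went from 259, 289 and 240 counts to 1079, 880 and 986 (log2 change 1.91, SE 0.10, adjusted p 2.9e-14), a change larger than that of DDX58 or DHX58 in value. ZNFX1, a helicase that binds viral RNA at mitochondria, rose by 0.49 (SE 0.04, adjusted p 5.9e-10). Among other proteins that bind double-stranded RNA, none of 11 rose and 3 fell, namely STAU2 (-0.60, SE 0.18, adjusted p 0.012), the microRNA processing enzyme DROSHA (-0.47, SE 0.09, adjusted p 1.9e-04) and SON, a splicing cofactor (-0.42, SE 0.08, adjusted p 6.2e-05).

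Negative regulators had 2 of 7 higher and 1 lower. DNAJC3, an inhibitor of PKR that also serves as a chaperone of the endoplasmic reticulum, rose by 0.56 (SE 0.04, adjusted p 3.7e-11). RNF125, a ubiquitin ligase for RIG-I, MDA5 and MAVS, rose by 0.54 (SE 0.14, adjusted p 0.0030). RNF5, which marks MAVS for degradation, fell by 0.24 on the log2 scale (adjusted p 0.0047, and 0.0547 without shUSP39 replicate 2).

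Of 8 genes around eIF2α, the substrate of PKR and of other kinases, 1 rose and 2 fell. PPP1R15A, the subunit that directs removal of the phosphate from eIF2α, rose from 1919, 1931 and 1740 counts to 4038, 4176 and 3914 (log2 change 1.12, SE 0.05, adjusted p 2.6e-15). EIF2AK4, another eIF2α kinase, and EIF2S1, which is eIF2α itself, fell by 0.34 (adjusted p 6.0e-09) and 0.15 (adjusted p 7.5e-04) on the log2 scale. The PKR gene itself had too few counts to be set beside them.

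Of 11 listed interferon and chemokine genes, 10 had counts and 5 were tested. Of those 5, 4 rose in shUSP39 from at most 4 counts in any pGIPZ-NC library, and 1, IFNE, was well detected in pGIPZ-NC and fell. The 4 passed the filter on low counts only through shUSP39, so only a rise could be found for them. Their number is therefore not set beside the shares of all tested genes. IFNB1, interferon beta, had 0, 4 and 0 counts in pGIPZ-NC and 50, 79 and 104 in shUSP39 (log2 change 5.76, SE 0.64, adjusted p 5.0e-08). All its control counts came from pGIPZ-NC replicate 2, without which the fitted value was 9.28. IFNL1, interferon lambda, had 0 counts in every pGIPZ-NC library and 137, 108 and 75 in shUSP39 (adjusted p 1.0e-10). Set against 3 counts per library, the floor that a count of 0 allows, it was at least 35.3-fold higher.

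CXCL10 had 0, 0 and 1 counts in pGIPZ-NC and 112, 116 and 119 in shUSP39, a ratio of 355 with an exact 95% interval of 63.2 to 14100 (adjusted p 1.1e-11). CCL5 had 0, 3 and 0 counts against 20, 23 and 21, a ratio of 21.8 with an interval of 7.13 to 109.0 (adjusted p 3.3e-04). Its control counts came from pGIPZ-NC replicate 2 and that of CXCL10 from replicate 3. Intervals and floors cover counting error only. IFNE, named after its values were seen, fell by 0.77 on the log2 scale (adjusted p 0.016), with 137, 158 and 77 counts against 91, 69 and 55 that overlapped. The median log2 change of the 5 genes was 5.76, and 5.14 with IFNL1 at its bound. Both medians follow from the filter on low counts, which 4 of the 5 genes passed only through shUSP39. IFNL3, which was not tested and has a near-identical copy, had 0 counts in pGIPZ-NC and 8, 10 and 4 in shUSP39.

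**Figure D5:**
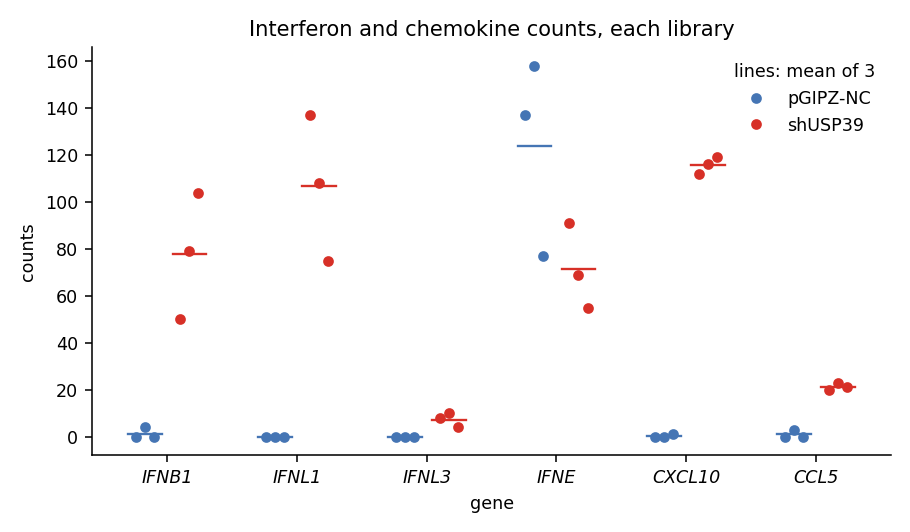
Counts of 6 interferon and chemokine genes in each library, with a line at the mean of 3. IFNB1, IFNL1, CXCL10 and CCL5 have at most 4 counts in any pGIPZ-NC library and at least 20 in each shUSP39 library, whereas IFNE is present in both groups.

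IFNB1, IFNL1 and CXCL10 had their counts in all 3 shUSP39 libraries, replicate 1 included, so their presence did not rest on shUSP39 replicates 2 and 3, in which more genes were detected. The same held for CCL5 and IFNL3. It did not hold for untested genes of that list with few counts. In shUSP39 replicates 1, 2 and 3, IFNL2 had 0, 11 and 5 counts and IFNA2 0, 7 and 1. IFNA1 had 0, 0 and 7 there, and IFNK 0, 2 and 4. The 3 receptors likewise had 892, 1506 and 504 counts in shUSP39 replicate 1 for IFIH1, DDX58 and DHX58.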

How the data were processed

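The authors deposited 1 table of raw read counts per RefSeq mRNA transcript, with 21368 rows and 1 column per library. The submitters' processing notes name HISAT2, Cufflinks and the build hg19, without roles; the counter, its use of strand and its treatment of reads shared by transcripts are not given in the sources used here. The deposited group means, folds, p-values and q-values of the authors were not used. Groups and replicate numbers came from the labels, and the replicates are described as biological, but whether they came from separate infections is unknown here.

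Transcript counts of 1 symbol were added up, and 46 symbols stored in date form were restored. Low counts were removed with filterByExpr, libraries scaled by TMM, and shUSP39 compared with pGIPZ-NC by the edgeR quasi-likelihood test (edgeR 4.0.16, limma 3.58.1, R 4.3.3), with Benjamini-Hochberg adjustment over 10695 genes and limits of an adjusted p of 0.05 and a 2-fold change. The steps were tested on simulated data. CPM are counts scaled to a library total of 1000000 after TMM adjustment of the totals. The medians by number of RefSeq mRNAs used totals without that adjustment. Exact intervals were Clopper-Pearson (SciPy 1.17.1). Positions came from GENCODE on GRCh37 and promoters from RefSeq on GRCh38.p14.

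All 10 members are given in every library, with their transcripts of at least 10 mean counts in 1 group. From each pathway list up to 4 genes with the largest absolute log2 change past the adjusted limit are named, and for the 3 members with the largest changes the 3 nearest genes. Members and lists were chosen with earlier results of these data known. Alternatives were DESeq2 (1.42.0) as test and as scaling, upper-quartile and no scaling, other filters, a replicate block, 1 transcript per gene, and each library left out. For 13 listed pathway genes no counts were analysed here.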

Additional observations from a re-analysis of the deposited data

How the results depend on the processing

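IFIH1, DDX58 and DHX58 kept their direction and passed the adjusted limit in all 15 alternatives, MAVS, IRF3 and IRF7 kept their direction, and EIF2AK2, TBK1 and ADAR, which passed in none, took both signs. The number of members past the limit was 3 or 4 in every alternative, the fourth being IRF7, or TLR3 when shUSP39 replicates 2 and 3 were left out together. That last alternative was chosen after seeing the data and leaves 1 shUSP39 library, assumed to vary like the controls: it gave 2244 genes past the limit (3598 in the reported analysis), 17 other pathway genes (27) and a median log2 change of members of 0.29 (0.09), with fewer samples by construction. IRF9, IRF1, RNF125 and EIF2S1 lost their call only there. Where every library had to hold at least 10 counts, 471 genes passed the limit and 2-fold against 728, and TLR3 and the interferons and chemokines that are near 0 in pGIPZ-NC were not tested by construction. Leaving out 1 library in turn gave 3095 to 3571 genes past the limit. STAU2 had an adjusted p of 0.155 when only the highest transcript of each gene was used; MEX3C (0.0623) and PPP1CC (0.119) lost theirs under upper-quartile scaling, and PPP1CC (0.0514) without scaling beyond library size; the causes were not tested. ADAR moved to a log2 change of -0.17 with its highest transcript alone. Replicate numbers were shared between groups, but same-number libraries did not deviate together (r 0.0688, 0.00477 and 0.0216), and replicate 2 correlated best with number 3; with the replicate block 3981 genes and 4 members passed. Low counts limit TLR3, EIF2AK2 and IRF7, which had at most 50 counts in any library, and the cause of the low counts was not tested.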
